A study of Arabidopsis thaliana with 8 samples.

Results

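The PYR/PYL proteins are the soluble receptors of abscisic acid (ABA), the plant hormone of drought, cold and salt stress. Transcripts of 9 genes of the family were followed: PYR1 (AT4G17870), PYL1 (AT5G46790), PYL2 (AT2G26040), PYL4 (AT2G38310), PYL5 (AT5G05440), PYL6 (AT2G40330), PYL7 (AT4G01026), PYL8 (AT5G53160) and PYL9 (AT1G01360). They were taken by their locus identifiers from the 26547 loci with a read in any library, and all 9 were among the 20228 genes tested. The plants were Arabidopsis, 2 weeks old and kept in long days, and the labels give leaf as the tissue. There were 8 libraries, 1 a group: lsm8-1 and Col-0 in soil after 24 h at 4 °C (light at 40 µmol m-2 s-1), both in soil at 20 °C (light at 90 µmol m-2 s-1), both on plates of 0.5X GM medium with 150 mM NaCl for 10 h, and both on GM plates without added salt. Col-0 is the wild-type accession, and lsm8-1 is a mutant of LSM8, a subunit of the nuclear LSM2-8 complex that binds U6 RNA for splicing. Whether a library pooled plants is not stated in the labels.

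In the core of the pathway a receptor closes over a bound ABA molecule and then blocks a clade A protein phosphatase 2C (PP2C), which serves as its coreceptor. The block frees SnRK2 kinases, which phosphorylate ABF and ABI transcription factors, guard cell channels and other targets. By sequence the family falls into subfamily I (here PYL7, PYL8 and PYL9), subfamily II (PYL4, PYL5 and PYL6) and subfamily III (PYR1, PYL1 and PYL2). PYR1, PYL1 and PYL2 are dimers without the hormone, while members of subfamilies I and II are mostly monomers that can bind some phosphatases with little or no hormone. In Arabidopsis single receptor mutants are mostly mild because the members overlap in function, and PYL8 has a role of its own in roots.

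The libraries held 33.4 to 45.9 M counted reads (M, 1e6 reads), so 3 reads, the limit that a count of 0 allows, stood for 0.0671 to 0.0898 CPM (counts per 1e6 reads, scaled by TMM). All intervals given cover counting error only. LSM8 had 821, 206, 29 and 51 reads in lsm8-1 (4 °C, 20 °C, NaCl, GM), against 1816, 578, 208 and 269 in Col-0. On plates root transcripts were abundant: 8 of 8 root markers reached 5 CPM in both GM libraries, and their summed level was 1844 to 6267 CPM in the 4 plate libraries, against 46.0 to 145 CPM in the 4 soil libraries, where 1 of 8 reached 5 CPM and 3 or 4 had no read. All 4 mesophyll markers reached 5 CPM in every library, but their summed level was 4205 to 8047 CPM in the 4 plate libraries, against 39151 to 55230 CPM in the 4 soil libraries. Soil and plate levels are not compared by a test.

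The promoters of PYL4 and PYL5 are shown because these receptors of subfamily II fell in both stresses and were alike over the 8 libraries (r = 0.96). Each line gives the 250 bases before the gene start in the RefSeq annotation of TAIR10.1, 5′ to 3′ on the strand of the gene. The windows are chr2:16049668-16049917 (+) for PYL4 and chr5:1608738-1608987 (+) for PYL5, and neither overlaps another annotated gene. Matches to 3 motifs, the ABRE core ACGTG, the cold element core CCGAC and the evening element AAATATCT (either strand), would stand in capitals, and there is none in these windows.
PYL4: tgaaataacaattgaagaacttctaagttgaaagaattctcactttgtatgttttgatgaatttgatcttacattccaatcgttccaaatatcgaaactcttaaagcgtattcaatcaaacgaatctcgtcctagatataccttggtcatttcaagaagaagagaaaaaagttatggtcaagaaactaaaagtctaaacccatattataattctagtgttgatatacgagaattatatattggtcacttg
PYL5: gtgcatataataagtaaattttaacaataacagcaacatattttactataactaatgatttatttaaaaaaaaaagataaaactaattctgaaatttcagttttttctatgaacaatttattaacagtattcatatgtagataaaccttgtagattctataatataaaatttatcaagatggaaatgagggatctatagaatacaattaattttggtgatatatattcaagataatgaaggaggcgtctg
The ABRE is the element bound by ABF factors. Of 8 receptor windows searched, its core is in 1, that of PYL7, and it is in 22.9% of 27443 protein-coding genes. PYL7 holds 3 matches, 2 of which overlap as one palindrome, but 221 of its 250 bases lie in the neighbouring gene AT4G01023. The cold element core is in 0 of the 8 windows and in 12% of all. The evening element is in PYL1 alone among the 8, and in 4.79% of all.

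Levels of different genes were compared per length (RPKM, as deposited). PYL4 led the family in unstressed plants. At 20 °C it stood at 110.1 RPKM in lsm8-1 and 178 RPKM in Col-0, which was 46.9% and 54.3% of the summed RPKM of the 9 genes. PYR1 came second with 40.0 and 59.6 RPKM (lsm8-1, Col-0), followed by PYL1 with 34.6 and 39.3 RPKM. PYL8, PYL9, PYL7, PYL2 and PYL5 stood between 3.13 and 17.2 RPKM in these libraries, and PYL6 was last at 1.10 and 0.761 RPKM. Neighbours in the order had separate Poisson 95% intervals except PYL7 and PYL2 in lsm8-1, and PYL2, PYL7 and PYL5 in Col-0. The length listed for PYL2 is 573 bases, equal to its coding length in TAIR10.1, so its level per length may not be on the same footing as the others.

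At 4 °C the family was lower and flatter. The sum over the 9 genes was 71.7 RPKM in lsm8-1 and 66.9 RPKM in Col-0, against 235 and 327 RPKM at 20 °C. PYL4 held 19.8% of the sum in lsm8-1 and 21.5% in Col-0. In lsm8-1 PYL4 (14.2 RPKM), PYL8 (13.4 RPKM) and PYL1 (12.3 RPKM) led, and each had an interval that overlapped that of the next. In Col-0 PYL1 stood first at 15.7 RPKM, with an interval that overlapped that of PYL4 at 14.4 RPKM. PYL5 and PYL6 were the 2 lowest in both genotypes, at 0.143 to 0.328 RPKM.

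On plates the sum was 122 RPKM in lsm8-1 and 129 RPKM in Col-0 with NaCl, against 226 and 349 RPKM on GM. With NaCl PYR1 led at 25.1 RPKM in lsm8-1 and 32.8 RPKM in Col-0, followed by PYL1 at 22.0 and 27.1 RPKM, and the intervals of the pair overlapped in lsm8-1. On GM PYL4 led, at 72.1 RPKM in lsm8-1 and 123 RPKM in Col-0. In Col-0 PYL6 was last with NaCl, at 1.07 RPKM, against 18.8 RPKM on GM, above PYL7 and PYL2. The share of subfamily II was 24.6% of the sum with NaCl in lsm8-1 and 21.2% in Col-0, against 40.7% and 47.8% on GM; the share of subfamily I was 33.8% and 31.4% with NaCl, against 19.1% and 13.8% on GM.

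**Figure D1:**
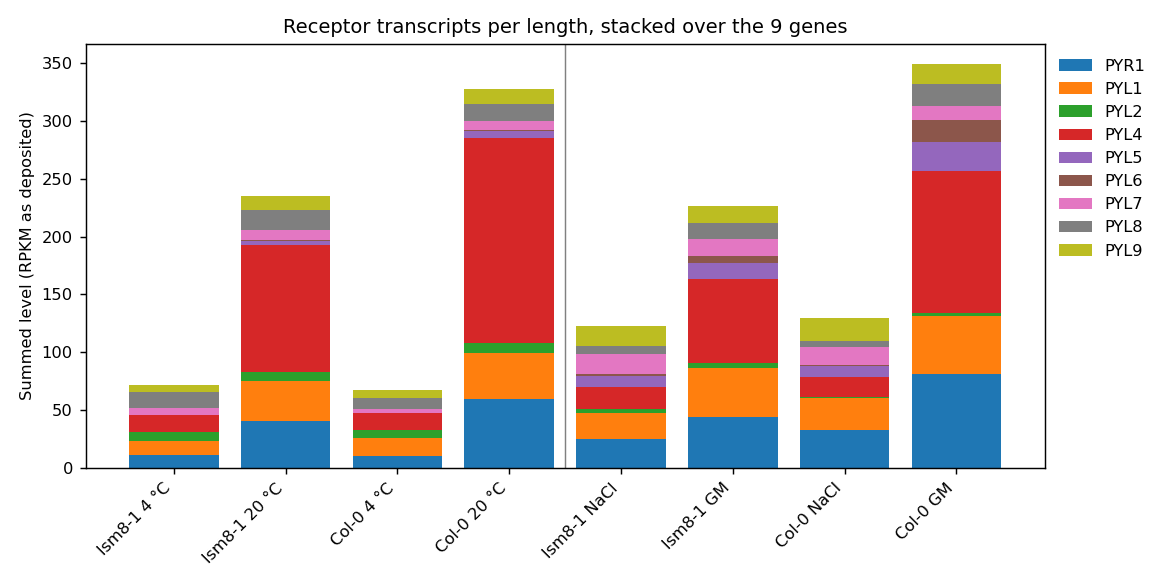
Stacked RPKM of the 9 receptor genes (y axis) in each of the 8 libraries (x axis, soil left of the line, plates right), 1 library a bar with no replicate error. The sum is 66.9 to 129 RPKM in the 4 stressed libraries and 226 to 349 RPKM in the 4 unstressed ones, and the PYL4 segment is the largest in each unstressed bar.

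The other 5 receptor genes were near the limit of detection. PYL3 had at most 38 reads in a library, PYL11 at most 16, PYL12 at most 14, and PYL10 and PYL13 at most 2. None passed the filter of 1 CPM in 2 libraries.

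The cold comparison asked how 24 h at 4 °C changed the receptors over both genotypes. Receptor transcripts fell: 8 of the 9 were lower by the edgeR quasi-likelihood test with Benjamini-Hochberg adjustment over all genes (threshold 0.05) and 0 were higher, where 20.1% of all genes tested were lower. The median effect over the 9 genes was -1.5 (log2), against -0.03 over all genes. Light differed along with temperature, so their effects cannot be told apart, and in whole tissue fewer cells of a type and less RNA per cell cannot be told apart either.

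Among the dimeric receptors of subfamily III, PYR1, the receptor found through the synthetic agonist pyrabactin, stood at 10.8 CPM in lsm8-1 and 10.2 CPM in Col-0 at 4 °C, against 41.6 and 66.3 CPM at 20 °C. It fell by 2.31 (log2, SE 0.22, edgeR quasi-likelihood, Benjamini-Hochberg adjusted p = 0.000296). PYL1, its closest relative, stood at 13.0 and 17.0 CPM at 4 °C (lsm8-1, Col-0), against 38.1 and 46.3 CPM at 20 °C. It fell by 1.5 (SE 0.14, edgeR adjusted p = 0.000282). PYL2, also a dimer, was the exception of the family, with 5.47 and 4.91 CPM at 4 °C (lsm8-1, Col-0), against 5.72 and 6.58 CPM at 20 °C. Its effect was -0.28 (SE 0.40, edgeR adjusted p = 0.636) and turned to 0.33 without the Col-0 library at 20 °C.

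PYL5 and PYL4 of subfamily II had the 2 largest fitted declines of the 9 receptors. PYL4, the most abundant receptor at 20 °C, had 18.6 CPM in lsm8-1 and 19.4 CPM in Col-0 at 4 °C, against 151 and 260.0 CPM at 20 °C. The 2 cold libraries were nearly level with each other, and PYL4 fell by 3.40 (SE 0.28, edgeR adjusted p = 0.00017), or 10.5-fold. PYL5, another monomeric receptor, had 0.258 and 0.478 CPM at 4 °C (lsm8-1, Col-0), against 4.64 and 9.79 CPM at 20 °C. It fell by 4.25 (SE 0.40, edgeR adjusted p = 0.000272), or 19.0-fold, and rested on 10 and 18 reads in the cold. PYL6, a receptor of low level in soil, had 15 and 7 reads at 4 °C (lsm8-1, Col-0), against 54 and 36 reads at 20 °C. It fell by 2.13 (SE 0.65, edgeR adjusted p = 0.0348), but without any 1 of the 4 soil libraries the adjusted p was 0.0644 to 0.199.

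The 3 genes of subfamily I fell by 0.61 to 0.96 (log2). PYL7 had 8.02 and 4.97 CPM at 4 °C (lsm8-1, Col-0), against 13.0 and 11.3 CPM at 20 °C. It fell by 0.93 (SE 0.18, edgeR adjusted p = 0.0061; 0.0603 without the Col-0 library at 20 °C). PYL7 overlaps AT4G03845 over 269 bases and AT4G01030 over 571 bases on the opposite strand in TAIR10.1, and since the strand setting of the counts is not given, reads of these genes cannot be told apart there. PYL9 had 7.87 and 7.75 CPM at 4 °C (lsm8-1, Col-0), against 14.2 and 16.2 CPM at 20 °C. It fell by 0.96 (SE 0.16, edgeR adjusted p = 0.00295). PYL8, the receptor with a role of its own in roots, had 20.0 and 14.6 CPM at 4 °C (lsm8-1, Col-0), against 26.9 and 25.6 CPM at 20 °C. It fell by 0.61 (SE 0.20, edgeR adjusted p = 0.0448), a call close to the threshold that was lost with library totals as scale (adjusted p = 0.124), without a filter (0.0565), with only model 1 of each locus (0.263) and without any 1 of 6 libraries (0.0574 to 0.262). The model 1 setting changed the plate counts only, since soil counts are per gene, so it is no check of the soil counts themselves. Among guard cell markers 1 of 4, the potassium channel KAT1, fell in the cold (-1.05, log2), as did 2 of 4 mesophyll markers. Of 8 root markers 1 was higher and 1 lower in the cold, and 1 of 8 reached 5 CPM in soil. The part of cell makeup in the receptor values was not tested.

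**Figure D2:**
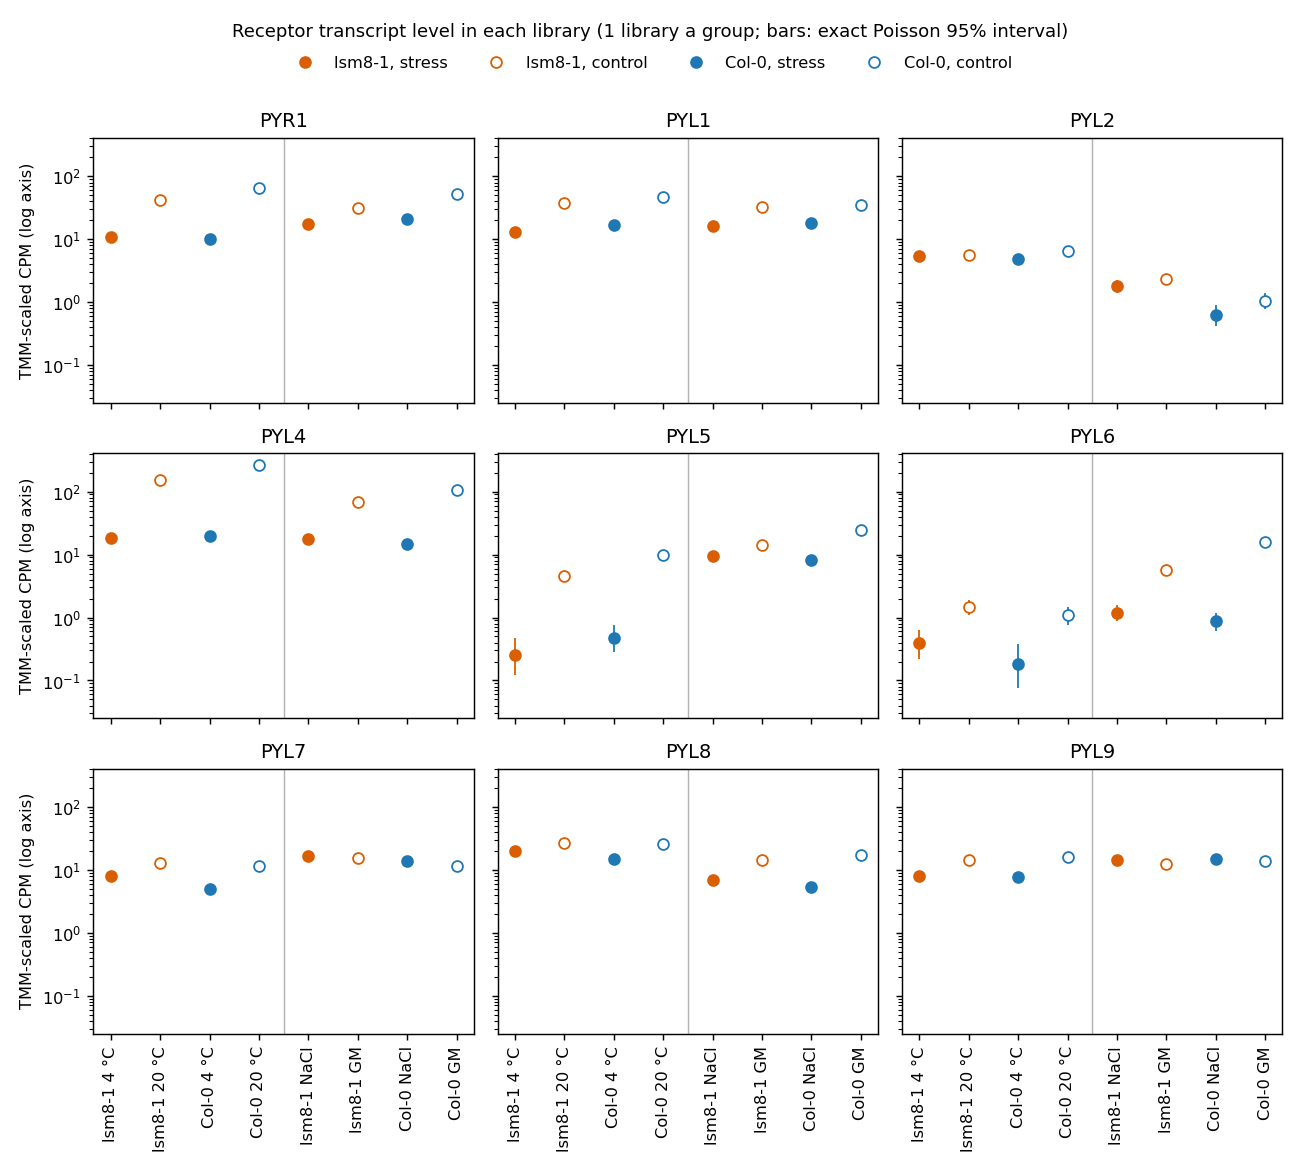
TMM-scaled CPM (y axis, log scale) of each receptor in the 8 libraries (x axis, soil left of the line, plates right); filled points are stressed, open points unstressed, and bars are exact Poisson 95% intervals of 1 library. PYL4 stands at 14.5 to 19.4 CPM in all 4 stressed libraries and at 68.5 to 260.0 CPM in the 4 unstressed ones, while PYL9 stays between 7.75 and 16.2 CPM throughout.

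The salt comparison asked the same of 10 h with NaCl on plates. It lowered 6 of the 9 receptors and raised 0 by the same test, where 15.1% of all genes tested were lower. The median effect over the 9 genes was -1.02 (log2), against -0.0038 over all genes. Root markers were lower with salt in 6 of 8 cases, with a summed level of 1844 CPM in lsm8-1 and 2335 CPM in Col-0 with NaCl, against 4031 and 6267 CPM on GM. Guard cell markers were lower in 4 of 4, with sums of 24.1 and 22.1 CPM with NaCl (lsm8-1, Col-0), against 67.5 and 51.1 CPM on GM. Of 4 mesophyll markers 1 was higher with salt, LHCB1.2 (2.63, log2), and 1 was lower, RBCS1A (-1.41). The part of these cell types in the receptor values was not tested.

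PYL6 and PYL4 had the largest fitted declines. PYL6 had 1.19 CPM in lsm8-1 and 0.872 CPM in Col-0 with NaCl, against 5.73 and 15.8 CPM on GM. It fell by 3.34 (log2, SE 0.55, edgeR quasi-likelihood, Benjamini-Hochberg adjusted p = 0.00393), or 10.2-fold. PYL4 had 17.7 and 14.5 CPM with NaCl (lsm8-1, Col-0), against 68.5 and 106 CPM on GM. It fell by 2.39 (SE 0.27, edgeR adjusted p = 0.000904), and, as in the cold, the stressed libraries lay close together while the unstressed ones did not. PYL5 had 9.46 and 8.23 CPM with NaCl (lsm8-1, Col-0), against 14.0 and 24.2 CPM on GM. It fell by 1.02 (SE 0.30, edgeR adjusted p = 0.0366), a call lost without any 1 of 5 libraries (adjusted p = 0.0512 to 0.23), and the effect was -0.46 without the Col-0 library with NaCl.

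Of subfamily III, PYR1 had 17.5 CPM in lsm8-1 and 21.0 CPM in Col-0 with NaCl, against 31.7 and 53.4 CPM on GM. It fell by 1.11 (SE 0.21, edgeR adjusted p = 0.00705; 0.062 without the Col-0 library on GM and 0.0608 without that with NaCl). PYL1 had 16.2 and 18.3 CPM with NaCl (lsm8-1, Col-0), against 32.4 and 35.4 CPM on GM. It fell by 0.97 (SE 0.14, edgeR adjusted p = 0.00234). PYL2 had 1.80 and 0.626 CPM with NaCl (lsm8-1, Col-0), against 2.33 and 1.06 CPM on GM, an effect of -0.50 (SE 0.45, edgeR adjusted p = 0.441).

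Subfamily I was divided. PYL8 had 6.83 and 5.30 CPM with NaCl (lsm8-1, Col-0), against 14.2 and 17.1 CPM on GM, and fell by 1.38 (SE 0.21, edgeR adjusted p = 0.00272). PYL7 had 16.6 and 13.6 CPM with NaCl (lsm8-1, Col-0), against 15.3 and 11.3 CPM on GM. PYL9 had 14.5 and 14.7 CPM with NaCl (lsm8-1, Col-0), against 12.3 and 13.7 CPM on GM. These 2 genes had effects of 0.19 (SE 0.18, edgeR adjusted p = 0.471) and 0.17 (SE 0.16, edgeR adjusted p = 0.457) and were not called.

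**Figure D3:**
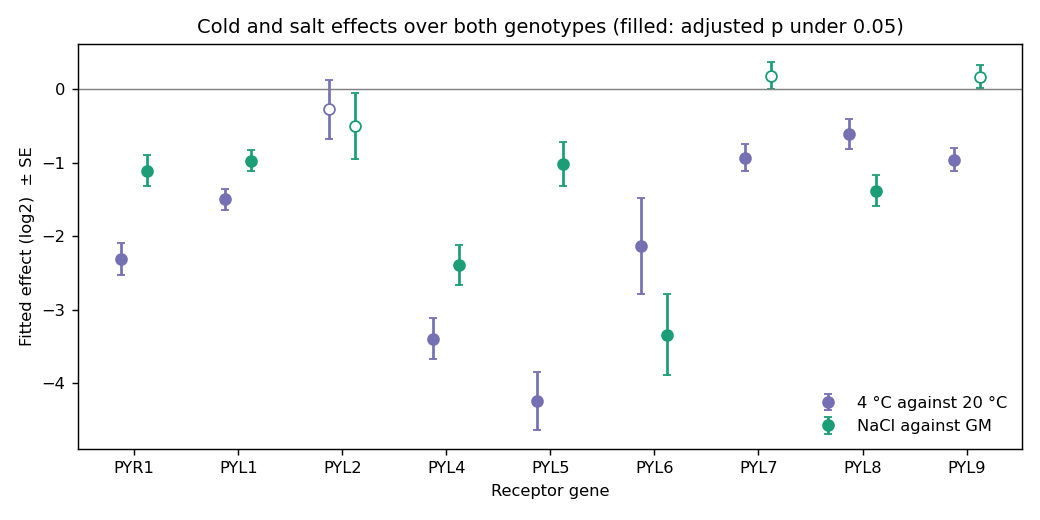
Fitted effect on the log2 scale (y axis) of 4 °C against 20 °C and of NaCl against GM for each receptor (x axis), over both genotypes, with SE bars; filled points have an edgeR adjusted p under 0.05. In the cold 8 points are filled, from -4.25 to -0.61, and with salt 6, from -3.34 to -0.97, while PYL7 and PYL9 lie just above 0 with salt.

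The effects of the 2 stresses were then set against each other in the same fit. The difference, cold effect minus salt effect, passed the threshold for 4 of the 9 receptors, where 31.1% of all genes tested did. It was -3.23 (log2, SE 0.50, edgeR quasi-likelihood, Benjamini-Hochberg adjusted p = 0.00343) for PYL5, which fell 19.0-fold in the cold and 2.03-fold with salt. It was -1.13 (SE 0.22, edgeR adjusted p = 0.00857) for PYL9 and -1.12 (SE 0.26, edgeR adjusted p = 0.0147) for PYL7, the pair not called with salt. It was -1.2 (SE 0.30, edgeR adjusted p = 0.0203) for PYR1. The PYR1 call was lost without any 1 of 4 libraries (edgeR adjusted p = 0.0594 to 0.0957) and the PYL7 call without any 1 of 3 (0.054 to 0.0683). The DESeq2 Wald test called PYL1 (-0.55, adjusted p = 0.0424) and PYL4 (-1.03, adjusted p = 0.0389) as well. PYL6 and PYL8, which fell further with salt, had differences of 1.21 (SE 0.87, edgeR adjusted p = 0.329) and 0.77 (SE 0.29, edgeR adjusted p = 0.0763). The 2 stresses differed in medium, duration and light besides, and these cannot be told apart here.

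The genotype comparison asked whether the receptors differed in lsm8-1 over the 4 conditions. None of the 9 passed the edgeR quasi-likelihood test with Benjamini-Hochberg adjustment, where 1.09% of all genes tested did, and the DESeq2 Wald test also called 0. At an unadjusted p under 0.05, 4 of the 9 did, against 18.6% of all genes. Of these, PYR1 had an effect of -0.41 (log2, SE 0.15, edgeR adjusted p = 0.208), PYL5 of -0.58 (SE 0.23, 0.242), PYL1 of -0.24 (SE 0.10, 0.248) and PYL7 of 0.40 (SE 0.13, 0.17). The other effects ran from -0.31 for PYL4 to 0.57 for PYL2, and the median of the 9 was -0.13, against 0.02 over all genes. Fitted on the soil libraries alone, with 1 residual degree of freedom, PYL5 was called (-1.08, edgeR adjusted p = 0.0284), 1 of the 8 receptors tested (PYL6 did not pass the filter there), where 8.55% of all genes tested in that fit were called.

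Within single conditions there is no test, and ratios are of 1 library to 1 library with exact Clopper-Pearson 95% intervals. PYR1 and PYL4 had their lowest ratios in the unstressed plants. At 20 °C lsm8-1 over Col-0 gave 0.474 (0.392 to 0.572) for PYL5, 0.579 (0.56 to 0.599) for PYL4, 0.628 (0.588 to 0.671) for PYR1 and 0.823 (0.765 to 0.885) for PYL1. On GM it was 0.364 (0.311 to 0.424) for PYL6, 0.58 (0.522 to 0.644) for PYL5, 0.594 (0.554 to 0.637) for PYR1 and 0.644 (0.614 to 0.676) for PYL4. In the stressed plants PYL4 had a ratio of 0.961 (0.866 to 1.07) at 4 °C and 1.22 (1.09 to 1.36) with NaCl, and PYR1 of 1.05 (0.914 to 1.21) and 0.834 (0.756 to 0.921). PYL5 had a ratio of 0.54 (0.223 to 1.23) at 4 °C, where it had few reads, and 1.15 (0.994 to 1.33) with NaCl.

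PYL7 ran the other way, with ratios of 1.62 (1.34 to 1.95) at 4 °C, 1.15 (1.00 to 1.32) at 20 °C, 1.22 (1.09 to 1.37) with NaCl and 1.35 (1.2 to 1.53) on GM, higher in 4 of 4 lsm8-1 libraries. PYL1 was lower in 4 of 4, with a ratio of 0.763 (0.678 to 0.859) at 4 °C, 0.884 (0.797 to 0.980) with NaCl and 0.915 (0.848 to 0.986) on GM. PYL2 had ratios of 2.88 (1.84 to 4.62) with NaCl and 2.21 (1.53 to 3.23) on GM, from 28 to 91 reads a library, against 1.11 (0.91 to 1.36) at 4 °C and 0.868 (0.715 to 1.05) at 20 °C. PYL8 had ratios of 1.37 (1.23 to 1.53) at 4 °C and 1.29 (1.08 to 1.54) with NaCl, and 1.05 (0.959 to 1.15) at 20 °C and 0.834 (0.746 to 0.933) on GM. PYL9 stayed between 0.874 and 1.02 in all 4 pairs. Of the receptors at 5 CPM or more, a 2-fold difference between genotypes was reached by 0 of 7 at 4 °C, 1 of 8 at 20 °C (PYL5, lower), 0 of 7 with NaCl and 1 of 8 on GM (PYL6, lower). Over all genes the shares were 2.94%, 1.68%, 5.27% and 4.04% in the same order.

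**Figure D4:**
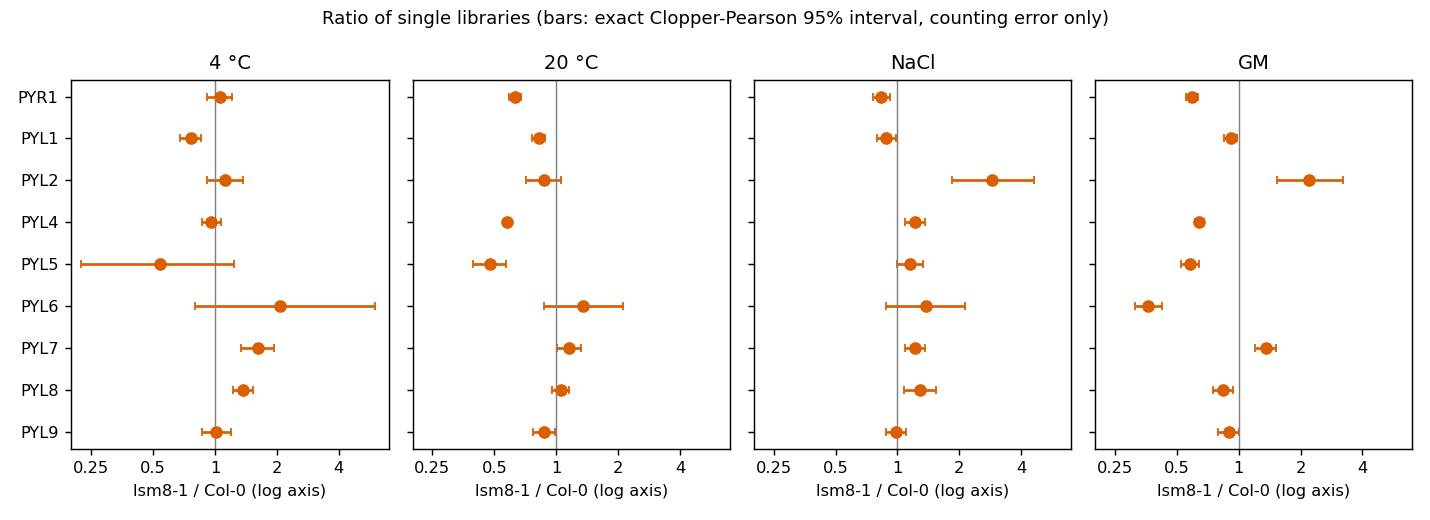
Ratio of the lsm8-1 to the Col-0 library (x axis, log scale) for each receptor (y axis) in the 4 conditions, with exact Clopper-Pearson 95% intervals. PYR1, PYL4 and PYL5 lie between 0.474 and 0.644 at 20 °C and on GM, PYL4 lies at 0.961 and 1.22 under stress, and PYL7 lies above 1 in every panel.

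The same libraries read as stress responses gave smaller declines in lsm8-1 for most receptors. By the 2-fold rule 3 of 7 receptors were lower at 4 °C than at 20 °C in lsm8-1 and 6 of 8 in Col-0, against 23.5% and 24.9% of all genes moving either way. With NaCl 3 of 8 were lower in lsm8-1 and 5 of 8 in Col-0, against 20.2% and 20.8% of all genes. The cold counts differed by PYL5, PYL7 and PYL9, and in part through the cut-offs. PYL5 was under 5 CPM in lsm8-1 and not counted there. It was 17.98-fold lower (9.54 to 38.16) in lsm8-1 and 20.48-fold lower (12.75 to 34.99) in Col-0. PYL7 and PYL9 were 1.62-fold and 1.80-fold lower in lsm8-1, against 2.28-fold and 2.09-fold in Col-0. PYL4 was 8.09-fold lower (7.48 to 8.75, exact Clopper-Pearson 95% interval) at 4 °C in lsm8-1 and 13.4-fold lower (12.4 to 14.5) in Col-0. With NaCl it was 3.87-fold lower (3.56 to 4.21) in lsm8-1 and 7.31-fold lower (6.74 to 7.95) in Col-0. PYL6 was 4.80-fold lower (3.51 to 6.68) with NaCl in lsm8-1 and 18.1-fold lower (13.1 to 25.6) in Col-0. PYR1 was 3.87-fold lower (3.47 to 4.32) at 4 °C in lsm8-1 and 6.48-fold lower (5.82 to 7.24) in Col-0.

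On the log2 scale with a pseudocount of 1, the response in lsm8-1 minus that in Col-0 was positive in 7 of 9 receptors for cold (median 0.36) and in 7 of 9 for salt (median 0.48). The largest were 1.55 for PYL6 with salt, 0.92 for PYL5 with salt and 0.89 for PYL4 with salt. PYL1 was negative in both, at -0.09 for cold and -0.04 for salt. PYL5 had 0.70 for cold, from 10 and 18 reads at 4 °C (lsm8-1, Col-0), though its folds without the pseudocount had overlapping intervals. How many of all genes had a positive value was not counted. A model with 1 more term, for lsm8-1 under stress, was fitted after these values were seen. It called 0 of the 9 receptors by edgeR quasi-likelihood with Benjamini-Hochberg adjustment, and 0% of all genes. The median of the added term was 0.51 over the 9 receptors, against -0.02 over all genes. PYL4 had the largest term relative to its SE, 0.82 (SE 0.23, edgeR unadjusted p = 0.0101, adjusted p = 1), followed by PYR1 with 0.61 (SE 0.23, edgeR unadjusted p = 0.0303, adjusted p = 1). These were the 2 receptors at an unadjusted p under 0.05, where 2.45% of all genes stood, and DESeq2 called 0 receptors. A difference in response between the genotypes was thus not shown by this test with 2 residual degrees of freedom.

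LSM8 acts in splicing, and the receptor genes differ in whether they have introns. In TAIR10.1 the first models of PYR1, PYL1, PYL2, PYL4, PYL5 and PYL6 are single exons, while PYL7 and PYL9 have 2 introns. PYL8 is the receptor listed with several models in the plate tables: model 2 has 3 exons and encodes 188 residues, and model 1 keeps the second intron, has 2 exons and encodes 157 residues. The listed lengths, 1262 bases for model 1 and 1182 for model 2, differ by 80 bases, the length of that intron. In TAIR10.1 model 1 has 1262 bases and model 2 has 1748, so the models there differ beyond this intron. The intron lies on chromosome 5 (TAIR10.1, chr5:21561661-21561740, + strand) and has a GC content of 27.5%. It reads 5′ to 3′ as follows, with the GT and AG at its ends in capitals.
PYL8 intron 2: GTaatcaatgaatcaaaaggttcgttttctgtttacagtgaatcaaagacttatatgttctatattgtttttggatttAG
Which reads were assigned to a model is not given in the sources used here, so the shares below are shares of the counted reads of the locus.

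The intron-keeping model took a larger share of PYL8 reads in lsm8-1. With NaCl it had 40 of 280 reads in lsm8-1, 14.3% (10.7 to 18.9, Wilson 95% interval), against 8 of 237 in Col-0, 3.38% (1.72 to 6.52). On GM it had 154 of 556 reads in lsm8-1, 27.7% (24.1 to 31.6), against 45 of 727 in Col-0, 6.19% (4.66 to 8.18). The intervals of the genotypes did not overlap in either condition. In scaled reads model 1 stood 5.45 times higher (2.52 to 13.5) in lsm8-1 than in Col-0 with NaCl and 3.73 times (2.66 to 5.33) on GM. The spliced model 2 had ratios of 1.14 (0.949 to 1.38) and 0.643 (0.567 to 0.728) in the same order. Among loci with 2 models and at least 100 reads, the share of the first model moved by 10 percentage points or more between the genotypes in 10.9% of 2232 with NaCl and in 15.3% of 2123 on GM. The PYL8 change, 10.9 and 21.5 points, was exceeded in size by 9.23% and 3.86% of these loci. The share was chosen for description after the data were seen and has 1 library a group, hence no test, and the soil tables are per gene, so it was not analysed there.

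**Figure D5:**
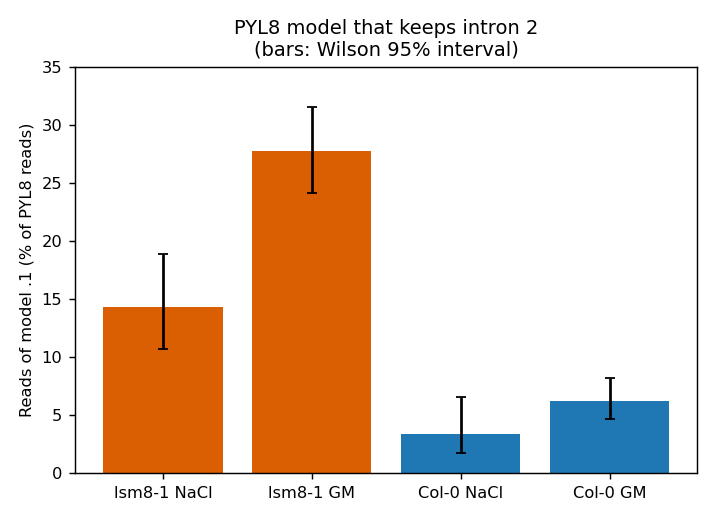
Reads of the PYL8 model that keeps intron 2, as a percent of all PYL8 reads (y axis), in the 4 plate libraries (x axis), with Wilson 95% intervals. The lsm8-1 bars are 14.3% and 27.7%, and the Col-0 bars are 3.38% and 6.19%.

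Most coreceptor phosphatases, and the genes listed as ABA outputs, were higher under both stresses. The lists were drawn from the known pathway, with earlier results of these data known. Of 8 tested clade A PP2C genes, the coreceptor phosphatases, 6 were higher and 0 lower in the cold, where 19% of all genes were higher, and 8 were higher with salt, where 15.2% were. Their median effect was 1.46 (log2) in the cold and 3.12 with salt. In the cold HAI2 rose by 4.34 (SE 0.45, edgeR quasi-likelihood, Benjamini-Hochberg adjusted p = 0.000395), HAI1 by 3.21 (SE 0.50, 0.00203) and ABI1, named for an ABA-insensitive mutant, by 2.06 (SE 0.22, 0.000438). With salt HAI3 rose by 7.0 (SE 0.66, edgeR adjusted p = 0.000778), HAI2 by 6.34 (SE 0.43, 0.000211) and HAI1 by 6.09 (SE 0.51, 0.000332). HAI3 was not called in the cold and was near the limit of detection in soil, with 0 reads in both libraries at 4 °C, against 0 in lsm8-1 and 3 in Col-0 at 20 °C. Of the 3 SnRK2 kinases, 1 was higher in each stress, SnRK2.6 (OST1, the guard cell kinase), by 1.09 in the cold (SE 0.16, edgeR adjusted p = 0.0016) and 1.59 with salt (SE 0.17, 0.000739). Of 6 tested ABF and ABI factors, 3 were higher in the cold and 4 with salt and 0 lower, led by ABI5 in the cold (3.65, SE 0.29, edgeR adjusted p = 0.000156) and ABF3 with salt (2.66, SE 0.31, 0.000984). All 7 genes listed as ABA outputs were higher in both, among them KIN1 with 8.27 in the cold and RAB18 with 6.99 with salt. Cold effect minus salt effect was called higher for 3 of the 7 and lower for 3, where 31.1% of all genes were called. Whether ABA raised these genes here was not tested. In lsm8-1 against Col-0 0 genes of these 4 lists were called by edgeR, and at an unadjusted p under 0.05 there were 0 of 8 phosphatases, 3 of 3 kinases, 1 of 6 factors and 4 of 7 outputs, where 18.6% of all genes stood. The kinase effects went both ways, 0.29 for SnRK2.2, 0.82 for SnRK2.3 and -0.29 for SnRK2.6. Fitted over the 4 conditions, these 4 outputs had effects from -1.25 to -0.58, and the median of the 7 was -0.65, against 0.02 over all genes. Of the 4, RD29A and COR15A were not lower in lsm8-1 at 4 °C. RD29A had 6911 CPM in lsm8-1 and 6829 CPM in Col-0 there, and COR15A 7933 and 7444 CPM. With NaCl RD29A had 1596 and 4372 CPM (lsm8-1, Col-0), and COR15A 399 and 1308 CPM.

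Likeness among the receptors was taken as Pearson's r of log2 CPM over the 8 libraries, each gene centred within its experiment, and is a description, since the points share the 4 stressed libraries. PYR1, PYL1, PYL4 and PYL5 were alike, with r from 0.95 to 0.99 for their 6 pairs. PYL8 was most like PYL6 (0.95) and PYL9 most like PYL5 (0.85), while PYL7 and PYL6 had 0.05. PYL2 had at most 0.46 with any other member. Outside the family, the genes most like the mean of subfamily III were SMT2, a sterol methyltransferase (0.998), NF-YB3, a subunit of a CCAAT-binding factor (0.997), and RIBA3 (0.997). Those most like subfamily II were XYL4, a xylosidase (0.996), AT5G25100 (0.995) and AT4G18205 (0.994), and those most like subfamily I were the blue light receptor CRY1 (0.995), the profilin PRF1 (0.992) and the peroxisomal malate dehydrogenase PMDH2 (0.992). Such values were common among the 14802 genes compared: 919, 714 and 681 genes had r above 0.9 with subfamilies III, II and I. The mean of subfamily I joins unlike members, since PYL8 had an r of 0.28 with PYL7 and 0.26 with PYL9. An r also takes no account of the size of a change. AT5G25100 had 161 and 160 CPM at 4 °C (lsm8-1, Col-0), against 182 and 184 CPM at 20 °C.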

How the data were processed

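Per the file headers, the deposited tables give for each feature the count of uniquely placed reads and the RPKM, per gene in the cold experiment and per transcript model in the salt experiment. Per the submitters' processing notes the build was TAIR10; the sources used here do not give the aligner or counter. RPKM values deposited by the authors, scaled by library total and not by TMM, were used to compare genes and for the family sums and shares across libraries. No test used them. Models of a locus were summed (5144 loci have several), and ratios were taken within an experiment. RefSeq TAIR10.1 gave structures and sequences only, because the files hold no coordinates. For most receptor models the listed length differs from that in TAIR10.1, as for PYL6 with 1071 against 1607 bases. The gene starts may therefore differ as well. The promoter of 1 receptor is not reported here.

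Counts were fitted with edgeR 4.0.16 in R 4.3.3 (TMM; filter of 1 CPM in at least 2 libraries; additive genotype and condition, 3 residual degrees of freedom; quasi-likelihood test, Benjamini-Hochberg, threshold 0.05) after the script was tested on simulated data. Any difference in response between genotypes is part of the fitted spread. p-values measure the spread between these libraries. DESeq2 1.42.0, other scalings, filters, models and left-out libraries were alternatives. Single-library ratios used TMM-scaled CPM, with a pseudocount of 1 on the log2 scale.

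The members, gene lists and tests were chosen with earlier results of these data known. Named in the text are all members, the other 5 receptor genes, LSM8 and the 3 SnRK2 kinases. Of each other list at most 4 called genes are named, by effect size. The 3 genes most like each subfamily are named as well.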

Additional observations from a re-analysis of the deposited data

Results flagged for a closer look

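The cold and salt effects differed by the test of the difference in the same fit (edgeR quasi-likelihood, Benjamini-Hochberg) for 4 of the 9 receptors. The same test called 31.1% of all genes tested. The cold effect minus the salt effect was -3.23 (log2) for PYL5, -1.2 for PYR1, -1.13 for PYL9 and -1.12 for PYL7. All 4 stood lower relative to their control in the cold than with salt, in both genotypes. The PYR1 and PYL7 calls were lost when some single libraries were left out, as given above. Medium, duration, light and the level of root transcripts differed between the 2 experiments as well, and their part in these differences was not tested.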

How the results depend on the processing

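Over scalings, filters, models, DESeq2 and the cold experiment alone (where PYL6 was not tested), 7 or 8 receptors were lower in the cold, and 6 were lower with salt over scalings, filters, models, DESeq2 and the salt experiment alone. With 1 library left out, the counts were 5 to 8 for cold (5 without Col-0 at 20 °C), 4 to 6 for salt and 2 to 5 for the difference of the 2 stresses (2 without Col-0 at 20 °C or at 4 °C). The genotype count was 1 in the cold experiment alone. Directions turned for genes that were not called: the genotype effect on PYL2 was -0.063 in the cold experiment alone, and that on PYL6 was 0.021 with DESeq2 and -0.42 to 0.54 with 1 library left out. With 1 library left out, PYL2 ran from -0.75 to 0.33 for cold, from -1.22 to 0.025 for salt and from -0.24 to 1.00 for their difference. The causes were not tested. The additive fit sets the genotypes against each other within the 4 conditions, and no further pairing was made because each group has 1 library. The limits are the single library a group, counting error for PYL2, PYL5 and PYL6 at low reads, and the missing strand and counting rules.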

Other observations

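Genes for making, breaking down and moving ABA were counted by the same test (edgeR quasi-likelihood, Benjamini-Hochberg), where over all genes 19% were higher and 20.1% lower in the cold and 15.2% higher and 15.1% lower with salt. Of 6 tested synthesis genes, 2 were higher and 1 lower in the cold and 3 were higher with salt. NCED5 and NCED3, dioxygenases of the limiting step, rose by 3.51 (log2) and 3.28 in the cold, and NCED3 rose by 4.66 with salt. ABA2, the dehydrogenase of the next-to-last step, fell by 1.10 in the cold. Of the 4 hydroxylases that break ABA down, 2 were higher and 1 lower in the cold and 3 were higher with salt. CYP707A1 rose by 2.27 in the cold and 2.93 with salt, CYP707A4 by 1.37 and 2.68, while CYP707A3 fell by 1.09 in the cold and rose by 2.03 with salt. Of 3 transporters, 1 was higher and 1 lower in the cold and 2 were higher with salt. ABCG40, an importer, rose by 3.08 in the cold and 3.78 with salt, NPF4.6 fell by 0.72 in the cold, and ABCG25, an exporter, rose by 1.14 with salt.

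Of 5 tested genes for proteins that sort, degrade or recruit the receptors, 0 were called in the cold by edgeR and 2 were higher with salt, beside the shares over all genes given above. At an unadjusted p under 0.05 in the cold there was 1 of 5, where 48.3% of all genes stood. FREE1, an endosomal sorting protein, rose by 0.57 with salt, and VPS23A, a subunit of the same sorting machinery, by 0.54. In lsm8-1 against Col-0 none of the genes in these 4 lists was called, where 1.09% of all genes were, and 1 synthesis gene and 0 genes of the other 3 lists had an unadjusted p under 0.05, where 18.6% of all genes did.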
